A study of Mus musculus with 23 samples.

Results

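Neurosphere and adherent origin were compared in the GL261 and CT2A glioma models to find genes that respond to neurosphere origin in a single line. The comparison used 15 of the 23 RNA sequencing libraries of the series, all from tumor cells sorted out of ex vivo tumors. The libraries formed 4 groups: GL261 tumors of adherent cultures (samples 81, 82, 83 and 84), GL261 tumors of neurospheres (89, 90 and 91), CT2A tumors of adherent cultures (69, 70 and 71) and CT2A tumors of neurospheres (57, 58, 59, 60 and 61). The remaining 8 libraries were bulk tumors, 4 of GL261-luc2 and 4 of CT2A-luc, and served only as reference levels for cell type markers. The response of a line is the log2 fold change of the neurosphere group against the adherent group, and the interaction is the CT2A response minus the GL261 response, fitted on all 15 libraries at once.

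GL261 and CT2A are carcinogen-induced glioma lines of C57BL/6 mice. All 4 groups carried firefly luciferase and a reporter used for sorting and were implanted into the right striatum of young adult female albino C57BL/6 mice with an intact immune system. The general culture of the methods was in serum medium, with G418 for GL261 and puromycin for CT2A, and the neurosphere medium is not given in the sources used here. Each line is a single cell line, so its tumors replicate the implantation and not the origin of the line. Tumors were dissociated, and reporter-positive cells were enriched with magnetic beads, a positive selection that can carry other cells along. The labels call a library neurosphere-cultured or give no culture, and the adherent origin of the latter is the general statement of the methods. Whether the neurosphere step came before implantation or after tumor dissociation is not spelled out in the labels. The paper refers to lines grown as neurospheres and to tumors derived from them, which places the step before implantation.

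Neurospheres are free-floating clusters grown in serum-free medium with growth factors. They are used because they favor cells with properties of neural stem and progenitor cells, whereas serum and adherence favor differentiated or mesenchymal states. Immediate early genes such as Fos, Jun and Egr1 are switched on within minutes by growth factors, stress and tissue dissociation, and NF-kB targets such as Cxcl2 and Tnfaip3 by inflammatory signals in tumor cells and in macrophages alike.

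The 4 groups held 7395846 to 15263587 estimated reads per library. Mitochondrial genes took 1.26% to 1.67% of reads in GL261 neurosphere and 1.85% to 3.47% in GL261 adherent libraries, and 1.68% to 2.41% and 3.02% to 3.63% in the matching CT2A libraries, a difference whose part in the results was not tested. Titles of the 5 CT2A neurosphere libraries name GL261, whereas their cell line label and their description name CT2A. Genes picked after their levels were seen bore on this: the homeobox gene En1 had no reads in any GL261 library and 15.3 to 23.1 CPM (read counts scaled to an equal library size) in the 8 sorted CT2A libraries, and the oligodendrocyte lineage factor Sox10 had at least 537 CPM in each of the 7 sorted GL261 libraries and at most 0.842 CPM in sorted CT2A libraries. The 5 libraries were analysed as CT2A. GL261 adherent library 81 and CT2A neurosphere library 59 stood apart from the rest of their groups. Read counts of 59 differed from those of the other 4 CT2A neurosphere libraries with a chi-square per degree of freedom of 52.0 to 85.8, against 8.92 to 35.5 among those 4, and those of 81 with 61.8 to 66.5, against 5.07 to 16.6 among the other 3. CT2A neurosphere library 60 had the highest oligodendrocyte and neuron marker scores of its group, and each count below is also given without the libraries that moved it by more than 1.5 times.

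Macrophage RNA separated the GL261 neurosphere libraries from all others. The mean log2(CPM + 1) of 13 macrophage markers was 8.67, 8.35 and 8.26 in these 3 libraries, against 3.31, 5.86, 5.92 and 4.98 in the GL261 adherent, 5.31 to 6.36 in the CT2A adherent and 4.91 to 6.76 in the CT2A neurosphere libraries. The bulk GL261 tumors had 5.27 to 5.78, but these were other tumors, of GL261-luc2 without the sorting reporter. No bulk library was labeled as neurosphere, so whether sorting changed the macrophage share was not tested. All 13 markers were detected in every group, and their summed level was 6391 to 8890 CPM in the GL261 neurosphere libraries against 213 to 1542 CPM in the GL261 adherent, 944 to 1992 CPM in the CT2A adherent and 664 to 3259 CPM in the CT2A neurosphere libraries. Erythroid markers moved the same way, with a summed level of 28.6 to 77.9 CPM in GL261 neurosphere libraries and at most 6.34 CPM in the other sorted groups. Macrophage content and neurosphere origin cannot be told apart within GL261, since the macrophage scores of its adherent and neurosphere libraries do not overlap. Nor can fewer cells of a type be told from less RNA per cell in such libraries.

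**Figure D1:**
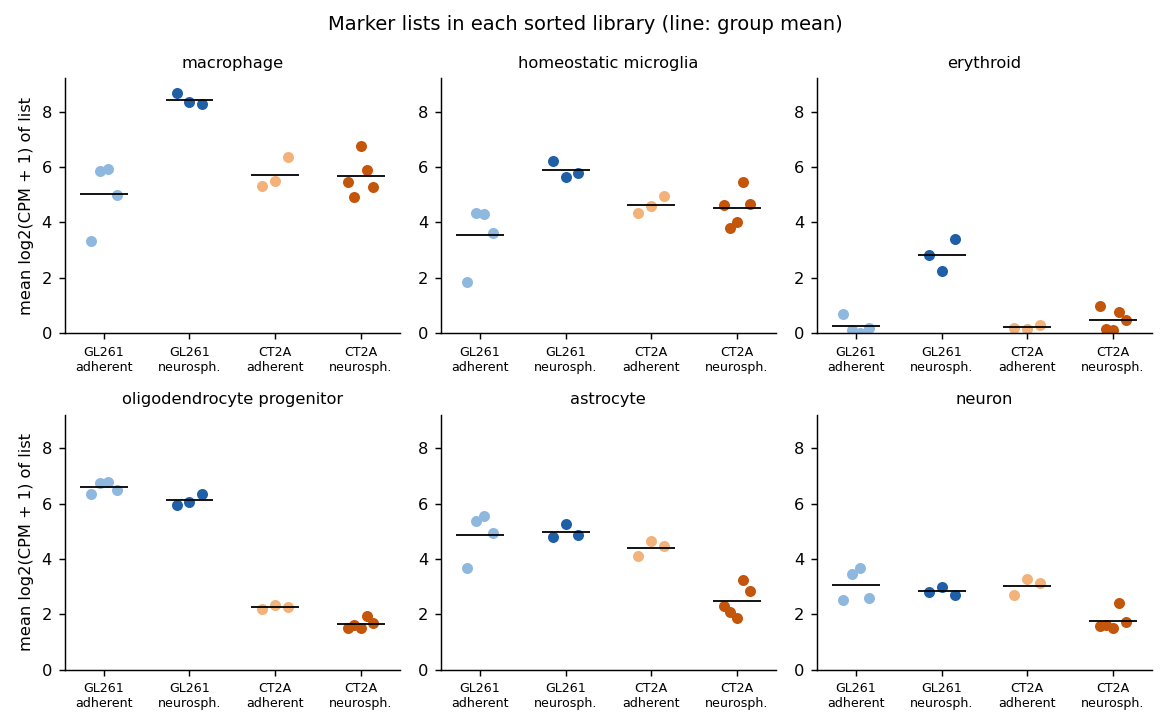
Mean log2(CPM + 1) of 6 marker lists (y axis) in each of the 15 sorted libraries, by group (x axis); points are libraries and lines are group means. The 3 GL261 neurosphere libraries lie at 8.26 to 8.67 for macrophage markers, above every other sorted library, and the CT2A neurosphere libraries lie lowest for astrocyte markers, at 1.85 to 3.23.

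The lines responded differently in 922 of 13824 genes tested (6.67% of all genes, edgeR quasi-likelihood test with Benjamini-Hochberg adjustment at 0.05). The CT2A response was the lower of the pair in 788 of them (5.7%) and the higher in 134 (0.969%). The GL261 response itself covered 1773 genes (12.8%), of which 1369 rose (9.9%) and 404 fell (2.92%) in neurosphere tumors. The CT2A response covered 130 genes (0.94%), of which 30 rose (0.217%) and 100 fell (0.723%). Of the 922 genes, 791 had a called response in GL261 and not in CT2A, 43 in CT2A and not in GL261, 4 in both and 84 in neither. The gene just outside the threshold was Tuba4a (interaction -2.16 ± 0.62, SE, adjusted p = 0.05002). In the median gene the 95% interval of the interaction reached 0.68 on the log2 scale to either side, so differences between the lines under about that size were not resolved.

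These counts varied with single libraries and with the marker score covariates. Without CT2A adherent library 71 the interaction covered 266 genes, without GL261 neurosphere library 89 it covered 261, without GL261 neurosphere library 90 it covered 457 and without CT2A neurosphere library 57 it covered 613. With the macrophage score as a covariate, 1 gene passed (955 at an unadjusted p under 0.05). With the mean score over all marker lists none passed (1953 at an unadjusted p under 0.05). Some of these markers were expressed by the tumor lines themselves, such as Sox10 in sorted GL261 and Pdgfrb in sorted CT2A libraries. The mean score therefore does not measure other cells alone. The GL261 response fell to 894 genes without library 89 and to 1 gene with the macrophage covariate. The CT2A response covered 187 genes with that covariate. It varied with the libraries, with 9 and 13 genes without CT2A adherent libraries 70 and 71, 291 without GL261 adherent library 81, 257 without CT2A neurosphere library 60 and 57 to 86 on leaving out any of libraries 57, 58, 59, 61, 69, 82, 89, 90 and 91.

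**Figure D2:**
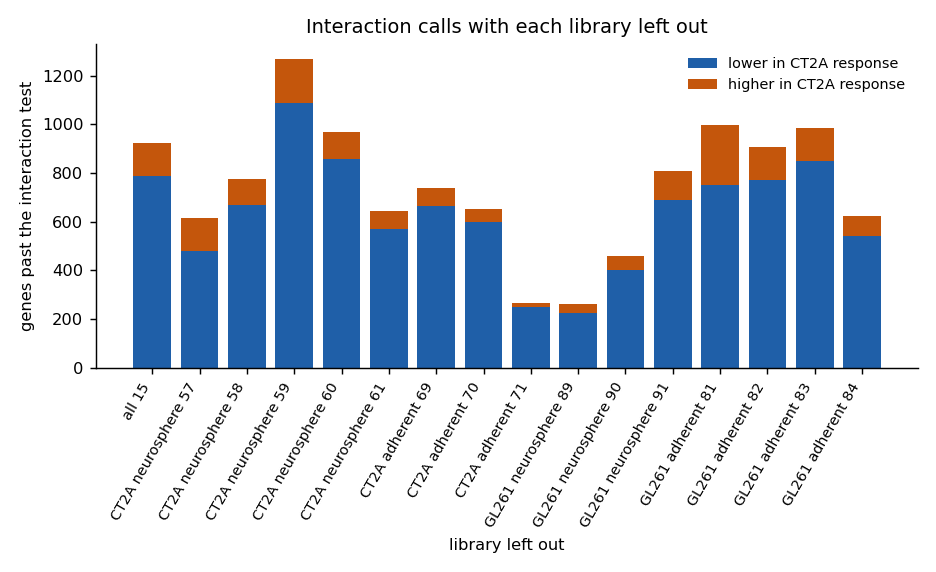
Number of genes past the interaction test (y axis, adjusted p under 0.05) with all 15 libraries and with each library left out (x axis), split by whether the CT2A response was lower or higher than the GL261 response. The count is 922 with all libraries and falls to 266 without CT2A adherent library 71 and to 261 without GL261 neurosphere library 89.

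Genes that responded in a single line were set apart by a stricter rule: the interaction was called, the responding line was called at 2-fold or more, and the other line was neither called nor compatible with a 2-fold change, its 95% interval lying within 1 of 0 on the log2 scale. This left 241 genes for GL261 (1.74% of genes tested), 227 higher (1.64%) and 14 lower (0.101%) in neurosphere tumors. For CT2A it left 10 genes (0.0723%), 3 higher (0.0217%) and 7 lower (0.0506%). A further 386 genes met the rule for GL261 except that the CT2A interval was too wide, and 32 met it for CT2A except for the GL261 interval. Only Gm11127 was called in opposite directions (0.00723%). Since these genes were chosen by the interaction, their number is a description.

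The count of GL261-only genes was 88 without GL261 neurosphere library 89, 109 without CT2A adherent library 71, 145 without library 90 and 149 to 154 without libraries 57, 69 or 70. No gene met the rule with either marker score covariate. Of the 227 higher genes, 219 kept a negative interaction with the macrophage covariate, and their median interaction went from -1.68 to -0.85. For the 14 lower genes all 14 kept their sign, and the median went from 1.38 to 0.78.

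**Figure D3:**
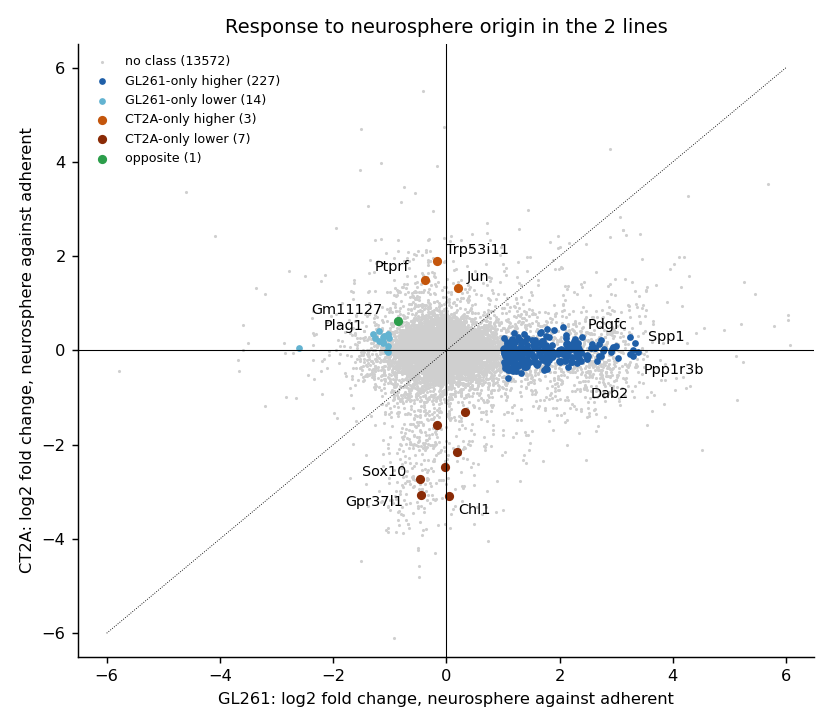
Response of each of 13824 genes in GL261 (x axis) and CT2A (y axis), as log2 fold change of neurosphere against adherent tumors, with the dotted line marking equal responses. GL261-only genes (227 higher, 14 lower) lie along the horizontal axis and CT2A-only genes (3 higher, 7 lower) along the vertical axis, a position their selection rule fixes; 24 genes lie outside the axes, beyond 6.5.

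Among the GL261-only genes named by rule the largest interaction was that of Ppp1r3b (chr8:35375739-35388139, GRCm38), which encodes a subunit that targets protein phosphatase 1 to glycogen. Its CPM, here and for all genes below scaled by TMM normalization factors, were 0.949, 2.51, 3.90 and 3.10 in GL261 adherent and 34.6, 22.1 and 19.2 in GL261 neurosphere libraries, and 7.78, 8.81 and 5.50 in CT2A adherent and 9.74, 4.48, 5.66, 6.31 and 7.52 in CT2A neurosphere libraries. The GL261 groups did not overlap, as in 26.5% of all genes (12.1% in CT2A). The naming rule fixes this for the responding line of every gene named from these classes, so it is no separate result. The CT2A groups overlapped at a level between the GL261 groups. The response was 3.29 ± 0.39 (SE, adjusted p = 0.000178) in GL261 and -0.13 ± 0.35 in CT2A (95% interval -0.88 to 0.63), an interaction of -3.42 ± 0.51 (SE, adjusted p = 0.00355). With the macrophage covariate it was -2.36 ± 0.84 (SE, adjusted p = 0.559).

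Spp1 (chr5:104435118-104441050) encodes osteopontin, a secreted ligand of integrins and CD44 made by glioma cells and by macrophages. It was measured at 26.9, 128, 144 and 77.9 CPM in GL261 adherent and at 1095, 679.9 and 1122 CPM in GL261 neurosphere tumors. The CT2A libraries were high in either condition, with 690.1 to 838 CPM in adherent and 408 to 1065 CPM in neurosphere tumors, so that the GL261 neurosphere libraries reached the CT2A level. The GL261 response was 3.38 ± 0.46 (SE, adjusted p = 0.000418), the CT2A response -0.04 ± 0.41 and the interaction -3.41 ± 0.60 (SE, adjusted p = 0.00771). With the macrophage covariate the interaction was -1.98 ± 0.96 (SE, adjusted p = 0.743).

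Dab2 (chr15:6299788-6440712), an endocytic adaptor present in many macrophages and mesenchymal cells, followed the same order. Its level was 8.44, 35.1, 45.6 and 25.1 CPM in GL261 adherent libraries, lowest in library 81 as the macrophage markers were, and 298, 237 and 270.2 CPM in GL261 neurosphere libraries. In CT2A it was 68.2 to 138 CPM in adherent and 60.1 to 146 CPM in neurosphere libraries, which overlap. The interaction was -3.33 ± 0.59 (SE, adjusted p = 0.00829) and -0.67 ± 0.27 (SE, adjusted p = 0.636) with the macrophage covariate. Gm49339, a predicted coding gene, moved alike, with an interaction of -3.28 ± 0.61 (SE, adjusted p = 0.00947).

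Lcmt2 had a value closer to the first fit with the macrophage covariate, although it was not called. Lcmt2 (chr2:121128307-121140653) encodes an enzyme that modifies transfer RNA. It had 0.105, 0.482, 0.236 and 0.274 CPM in GL261 adherent and 2.90, 1.98 and 2.07 CPM in GL261 neurosphere libraries, from 11 and 61 estimated reads per group in all, so that the GL261 estimate rests on few reads. The CT2A libraries had 8.83 to 12.4 CPM (adherent) and 7.37 to 11.6 CPM (neurosphere). The interaction was -3.18 ± 0.44 (SE, adjusted p = 0.00244), and -2.91 ± 0.76 (SE, adjusted p = 0.286) with the covariate. Gypc, a membrane glycoprotein that anchors the cytoskeleton in red cells and other cells, had 0.105, 0.675, 0.945 and 0.822 CPM against 11.8, 3.75 and 3.79 CPM in GL261, from 25 and 169 reads, and in CT2A 16.9 to 21.5 CPM (adherent) and 16.1 to 24.95 CPM (neurosphere). Its interaction was -3.19 ± 0.59 (SE, adjusted p = 0.00947), and -2.28 ± 1.02 (SE, adjusted p = 0.706) with the covariate. Haemoglobin markers rose in the same GL261 neurosphere libraries, and their part in the Gypc result was not tested.

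Genes of the signaling lists that met the GL261-only rule were Pdgfc, Tgfb1, Lfng and Lrp5. Like all GL261-only genes, none of them met it with either marker score covariate. Pdgfc, a ligand of the PDGF receptors, had 1.16, 2.31, 2.48 and 2.37 CPM in GL261 adherent and 18.2, 12.9 and 16.1 CPM in GL261 neurosphere tumors. In CT2A it was higher in both groups, which overlap, at 125 to 138 CPM (adherent) and 121 to 166 CPM (neurosphere). The GL261 response was 2.93 ± 0.21 (SE, adjusted p = 5.91e-06) and the interaction -2.86 ± 0.27 (SE, adjusted p = 0.000368). Tgfb1, the TGF-beta ligand, went from between 14.7 and 33.1 to between 101 and 126 CPM in GL261 and was 97.8 to 128 CPM (adherent) and 68.1 to 119.7 CPM (neurosphere) in CT2A, with an interaction of -2.49 ± 0.33 (SE, adjusted p = 0.00172). Lfng, a glycosyltransferase that tunes Notch receptors, rose by 2.22 ± 0.28 (SE, adjusted p = 0.000291) in GL261 and was at -0.24 ± 0.27 in CT2A. Lrp5, a WNT co-receptor, rose by 1.35 ± 0.24 (SE, adjusted p = 0.00203) and was at 0.02 ± 0.22. The GL261 neurosphere libraries remained below all CT2A libraries for Pdgfc and Lrp5, lay within their range for Tgfb1 and above them for Lfng.

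Among the 14 GL261-only genes that fell were a pair of related zinc finger transcription factors, Plag1 and Plagl1. Plagl1 (chr10:13060504-13131694), an imprinted regulator of growth, had 870.2, 681, 761 and 1036 CPM in GL261 adherent and 449, 387 and 368 CPM in GL261 neurosphere tumors, without overlap. In CT2A it was far lower, at 2.43 to 4.35 CPM (adherent) and 2.94 to 4.998 CPM (neurosphere). The GL261 response was -1.03 ± 0.19 (SE, adjusted p = 0.00245) and the interaction 1.37 ± 0.29 (SE, adjusted p = 0.0158), which was lost without CT2A adherent library 71 (adjusted p = 0.0575), and with the bulk groups in the fit or an offset for each library's effective gene lengths (up to 0.157). Plag1 (chr4:3900996-3938423) had 38.6, 17.9, 21.9 and 33.7 CPM in GL261 adherent and 11.4, 11.8 and 10.9 CPM in GL261 neurosphere tumors, and 19.9 to 25.4 CPM (adherent) and 22.6 to 39.3 CPM (neurosphere) in CT2A. Its interaction was 1.54 ± 0.35 (SE, adjusted p = 0.0195), lost without library 71 or GL261 neurosphere library 89, up to an adjusted p of 0.0579, and with the length offset (0.0661).

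The other 4 named genes that fell in GL261 differed in how firmly they were called. Ccl25, a chemokine ligand of CCR9, had 9.92, 9.15, 10.8 and 10.04 CPM in GL261 adherent and 4.52, 3.75 and 4.60 CPM in GL261 neurosphere tumors, and its CT2A levels were 12.1 to 14.9 CPM (adherent) and 12.9 to 17.5 CPM (neurosphere). Its interaction of 1.38 ± 0.23 (SE, adjusted p = 0.00690) held without each of the 15 libraries in turn and was 1.19 ± 0.36 (SE, adjusted p = 0.418) with the macrophage covariate. Atg9b, an autophagy membrane protein, had an interaction of 1.59 ± 0.36 (SE, adjusted p = 0.0183) and lost the call without library 71 or 89, at up to 0.0670, and with the macrophage covariate, at 0.60 ± 0.45 (SE, adjusted p = 0.925). Pacsin3, an adaptor that bends membranes at endocytosis, had 1.41 ± 0.34 (SE, adjusted p = 0.0243) and lost it without libraries 70, 71, 89 or 90, at up to 0.0771, and with the macrophage covariate, at 0.48 ± 0.44 (SE, adjusted p = 0.979). Armcx6, an X-linked armadillo repeat protein, had 1.403 ± 0.38 (SE, adjusted p = 0.0395) and lost it on leaving out any of 8 libraries (61, 69, 71, 82, 84, 89, 90 and 91), at up to 0.134, without a minimum count, at 0.0505, and with the macrophage covariate, at 0.72 ± 0.55 (SE, adjusted p = 0.937).

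**Figure D4:**
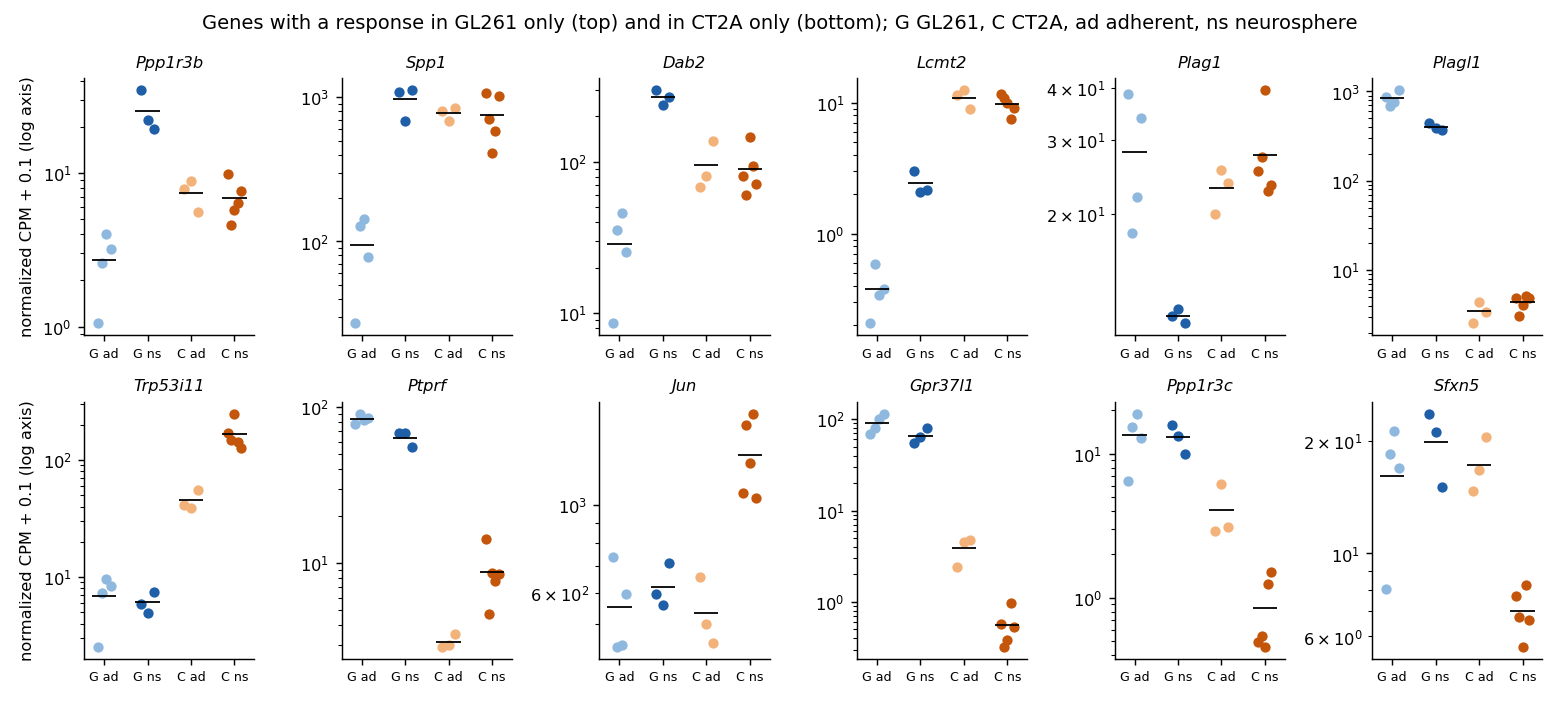
Normalized CPM plus 0.1 (y axes, logarithmic, each gene on its own scale) of 6 GL261-only genes (top) and 6 CT2A-only genes (bottom) in the 15 sorted libraries by group (x axes); points are libraries and lines are group means. Spp1 goes from between 26.9 and 144 to between 679.9 and 1122 CPM in GL261 with overlapping CT2A groups, and Trp53i11 from between 38.8 and 55.4 to between 127 and 247 CPM in CT2A with overlapping GL261 groups.

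By this rule 3 genes rose in CT2A alone. Trp53i11 (chr2:93187548-93201759), a gene induced by p53, had 41.4, 38.8 and 55.4 CPM in CT2A adherent and 169.5, 149, 247, 142 and 127 CPM in CT2A neurosphere tumors. In GL261 it was low in both groups, at 2.43, 7.23, 9.45 and 8.22 CPM (adherent) and 5.79, 4.85 and 7.36 CPM (neurosphere), which overlap. The CT2A response was 1.89 ± 0.33 (SE, adjusted p = 0.0168), the GL261 response -0.16 ± 0.37 (95% interval -0.95 to 0.63) and the interaction 2.05 ± 0.49 (SE, adjusted p = 0.0224). This was the gene that passed the interaction test with the macrophage covariate, at 3.80 ± 0.45 (SE, adjusted p = 0.0100). In that fit the CT2A response was 1.91 (adjusted p = 0.000586) and the GL261 response -1.89 (adjusted p = 0.156), against the value near 0 without the covariate, so that much of the larger interaction lay in GL261. With the mean marker score as covariate the interaction was 3.65 (adjusted p = 0.117). The call was lost without CT2A adherent library 70 or GL261 neurosphere libraries 89 or 90, at up to 0.0627.

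Ptprf (chr4:118208213-118291405) encodes the receptor tyrosine phosphatase LAR, which acts at cell adhesions. CT2A adherent libraries had 2.79, 2.90 and 3.43 CPM and CT2A neurosphere libraries 14.2, 4.63, 8.49, 7.54 and 8.37 CPM, all of the latter higher. In GL261 it was higher in either condition, at 77.2, 90.2, 82.7 and 84.4 CPM in adherent and 67.8, 67.6 and 55.0 CPM in neurosphere tumors, where the groups did not overlap and the response of -0.37 ± 0.24 (SE) was not called. In CT2A the response was 1.4996 ± 0.28 (SE, adjusted p = 0.0230) and the interaction 1.87 ± 0.37 (SE, adjusted p = 0.0110), which held without each of the 15 libraries. An offset for effective transcript length took it to an adjusted p of 0.106, and the macrophage covariate gave 2.30 ± 0.54 (SE, adjusted p = 0.242).

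Jun (chr4:95049034-95052222), a subunit of the AP-1 transcription factor, was the third. It was measured at 656, 500.4 and 447 CPM in CT2A adherent and 1069, 1590.5, 1273, 1698 and 1041 CPM in CT2A neurosphere tumors. In GL261 it was 737, 437, 443 and 596 CPM (adherent) and 595, 559 and 712 CPM (neurosphere), which overlap. The CT2A response was 1.33 ± 0.22 (SE, adjusted p = 0.0145), the GL261 response 0.20 ± 0.22 and the interaction 1.13 ± 0.31 (SE, adjusted p = 0.0427). That call was lost on leaving out any of 8 libraries (58, 60, 70, 71, 84, 89, 90 and 91), at up to 0.138. With the macrophage covariate it was 0.43 ± 0.42 (SE, adjusted p = 0.987), with a response of 1.33 in CT2A (adjusted p = 0.00621) and 0.91 in GL261 (adjusted p = 0.543).

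Of 17 tested genes of early response and dissociation stress, 12 rose in CT2A and 5 in GL261 and none fell, beside backgrounds of 0.217% and 9.9% of all genes for a rise in CT2A and GL261. Jun was the only member past the interaction test, in the direction of a higher CT2A response. The list's median interaction was 0.58, against 0.05 over all genes tested. DESeq2 called 5 of the 17 past the interaction, and with the macrophage covariate 13 rose in CT2A and none passed the interaction. Without CT2A adherent library 69 the number past the interaction was 2, and it was 0 without libraries 58, 70, 71, 84, 89 or 90.

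Fos, the AP-1 partner of Jun, had 225, 193 and 169 CPM in CT2A adherent and 432, 644, 997, 860.3 and 512 CPM in CT2A neurosphere tumors, without overlap. In GL261 it was 1345, 528, 593 and 806 CPM in adherent and 1422, 1152 and 1308 CPM in neurosphere tumors, which overlap through adherent library 81. Fos had a CT2A response of 1.83 ± 0.32 (SE, adjusted p = 0.0177), a GL261 response of 0.70 ± 0.31 (SE, adjusted p = 0.174) and an interaction of 1.13 ± 0.44 (SE, adjusted p = 0.151). Nr4a1, an orphan nuclear receptor of the early response, rose by 2.19 ± 0.44 (SE, adjusted p = 0.0327) in CT2A and was at 0.45 ± 0.40 in GL261, an interaction of 1.74 ± 0.59 (SE, adjusted p = 0.0974). Egr1, an early zinc finger factor, rose by 1.499 ± 0.33 (SE, adjusted p = 0.0457) and was at 0.25 ± 0.32 in GL261, an interaction of 1.25 ± 0.46 (SE, adjusted p = 0.125). These 3 differences between the lines did not pass the test.

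Zfp36 shows a gene that rose in both lines. It encodes tristetraprolin, which destabilizes cytokine messages. Its level was 229, 148, 168 and 137 CPM in GL261 adherent and 775, 624 and 651 CPM in GL261 neurosphere tumors, and 115, 98.1 and 90.1 CPM (adherent) and 230.4, 325, 537, 372 and 236 CPM (neurosphere) in the matching CT2A groups. Neither line's groups overlapped. The responses were 2.03 ± 0.26 (SE, adjusted p = 0.000342) in GL261 and 1.76 ± 0.27 (SE, adjusted p = 0.0109) in CT2A, and the interaction was -0.27 ± 0.36 (SE, adjusted p = 0.705) with an interval of -1.05 to 0.51. Junb, Egr2, Ier3 and Dusp1, early genes as well, also rose in both lines.

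The sequences before 3 start sites are shown for the motifs of factors known to act on these gene classes: Jun as the CT2A-only early gene, Zfp36 as the early gene of both lines and Cxcl2 as an inflammatory gene that rose in GL261 and was not called in CT2A. Each is the 250 bases before the RefSeq start (GRCm38.p6), 5′ to 3′ in the direction of transcription, with the named motif in capitals. For Jun (chr4:95052223-95052472, minus strand) it is TGACATCA, a variant of the site of AP-1 and CREB family dimers, 45 to 38 bases before the start. For Zfp36 (chr7:28379229-28379478, minus strand) it is a CArG box, the site of serum response factor, 58 to 49 bases before the start. For Cxcl2 (chr5:90903649-90903898, plus strand) it is a kappaB site, the site of NF-kB, between 97 and 87 bases before the start. Matches on both strands overlap in this single stretch.
Jun: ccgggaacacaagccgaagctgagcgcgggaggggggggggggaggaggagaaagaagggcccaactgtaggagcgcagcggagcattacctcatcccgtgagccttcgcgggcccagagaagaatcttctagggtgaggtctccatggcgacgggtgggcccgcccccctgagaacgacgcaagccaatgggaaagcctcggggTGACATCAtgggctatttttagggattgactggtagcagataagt
Zfp36: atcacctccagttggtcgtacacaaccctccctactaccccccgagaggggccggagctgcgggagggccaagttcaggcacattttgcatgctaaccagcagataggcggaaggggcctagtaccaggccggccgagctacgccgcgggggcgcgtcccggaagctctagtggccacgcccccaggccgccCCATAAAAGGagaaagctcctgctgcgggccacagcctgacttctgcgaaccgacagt
Cxcl2: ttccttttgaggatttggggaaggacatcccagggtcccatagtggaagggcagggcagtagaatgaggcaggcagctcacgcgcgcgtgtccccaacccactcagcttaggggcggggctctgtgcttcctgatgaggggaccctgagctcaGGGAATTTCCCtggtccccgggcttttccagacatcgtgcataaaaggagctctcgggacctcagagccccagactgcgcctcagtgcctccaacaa
Both strands were searched. TGACATCA was present in 2.93% of 32841 RefSeq windows of this length and in 2 of 18 windows of the early list. A CArG box was present in 1.47% of all windows, in 5 of 18 of the early list and in none of 23 windows of the inflammatory list. A kappaB site was present in 7.25% of all windows, in 6 of 18 of the early list and in 12 of 23 of the inflammatory list. A match is a stretch of letters and does not show that a factor was bound in these tumors.

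Of 24 tested cytokines, chemokines and NF-kB genes, 20 rose in GL261 and 4 in CT2A, beside 9.9% and 0.217% of all genes. The interaction test was passed by 8, all with the lower response in CT2A, beside 5.7% of all genes. The 8 were Ccl2, Ccl4, Ccl5, Ccl7, Il1b, Il1rn, Tlr2 and Nfkb1. The list's median response was 3.01 in GL261 and 1.24 in CT2A, against -0.06 and 0.01 over all genes. None of the 24 passed the interaction and none rose in GL261 with the macrophage covariate, under which 6 rose in CT2A. The number past the interaction was 3 without CT2A adherent library 71 or GL261 neurosphere library 89, 5 without library 90 and 13 without CT2A neurosphere library 60. Macrophages express much of this list, and macrophage content cannot be told apart from neurosphere origin in GL261.

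Ccl2, a chemokine for monocytes, had 0.844, 5.01, 4.84 and 3.20 CPM in GL261 adherent and 45.5, 50.2 and 56.4 CPM in GL261 neurosphere tumors. In CT2A it was 20.2, 15.7 and 16.3 CPM in adherent and 37.5, 22.03, 43.8, 42.4 and 30.7 CPM in neurosphere tumors, which do not overlap either. The response was 3.89 ± 0.39 (SE, adjusted p = 6.06e-05) in GL261 and, not called, 1.03 ± 0.35 (SE, adjusted p = 0.251) in CT2A, with an interaction of -2.86 ± 0.50 (SE, adjusted p = 0.00787). Ccl4 was called in both lines, at 4.11 ± 0.45 (SE, adjusted p = 9.28e-05) in GL261 and 1.97 ± 0.44 (SE, adjusted p = 0.0492) in CT2A, and past the interaction at -2.13 ± 0.59 (SE, adjusted p = 0.0447). Il1b, a cytokine of activated myeloid cells, had 10.2 to 33.9 CPM in GL261 adherent, 276 to 309.8 CPM in GL261 neurosphere, 18.2 to 21.6 CPM in CT2A adherent and 20.7 to 85.0 CPM in CT2A neurosphere libraries, with an interaction of -2.32 ± 0.53 (SE, adjusted p = 0.0188).

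Ccl7, also a monocyte chemokine, and Ccl5, a chemokine for T cells and monocytes, rose in GL261 by 4.25 ± 0.63 and 2.90 ± 0.36 (SE) and were at 0.16 ± 0.56 and 0.40 ± 0.35 in CT2A. Ccl7 had 0, 3.57, 2.72 and 1.55 CPM in GL261 adherent libraries, with no reads in library 81, and 29.4, 33.6 and 48.0 CPM in GL261 neurosphere libraries. Nfkb1, a subunit of NF-kB itself, showed a smaller difference. Its level was 64.0, 44.7, 48.7 and 48.4 CPM in GL261 adherent and 80.6, 72.8 and 83.2 CPM in GL261 neurosphere tumors, and 205 to 228 CPM (adherent) and 198 to 228 CPM (neurosphere) in CT2A. Its GL261 response was 0.65 ± 0.12 (SE, adjusted p = 0.00267), and the interaction -0.64 ± 0.16 (SE, adjusted p = 0.0306).

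For Cxcl2, a neutrophil chemokine, the lines were not shown to differ. It had 6.86, 6.55, 7.32 and 15.6 CPM (adherent) and 105, 145 and 185 CPM (neurosphere) in GL261, and 4.86, 24.2 and 5.399 CPM (adherent) and 42.0, 15.6, 65.5, 58.2 and 22.3 CPM (neurosphere) in CT2A, where the groups overlap through adherent library 70. The response was 4.02 ± 0.59 (SE, adjusted p = 0.000709) in GL261 and 1.84 ± 0.58 (SE, adjusted p = 0.206) in CT2A, and the interaction -2.19 ± 0.78 (SE, adjusted p = 0.115). Osm, Nfkbiz and Tnfaip3 rose in both lines and were not past the interaction, with values of -0.47 ± 0.62, -0.32 ± 0.33 and -0.25 ± 0.50 (SE). Tnfaip3 and Nfkbiz are feedback regulators of NF-kB, and Osm is a cytokine of the IL-6 family.

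**Figure D5:**
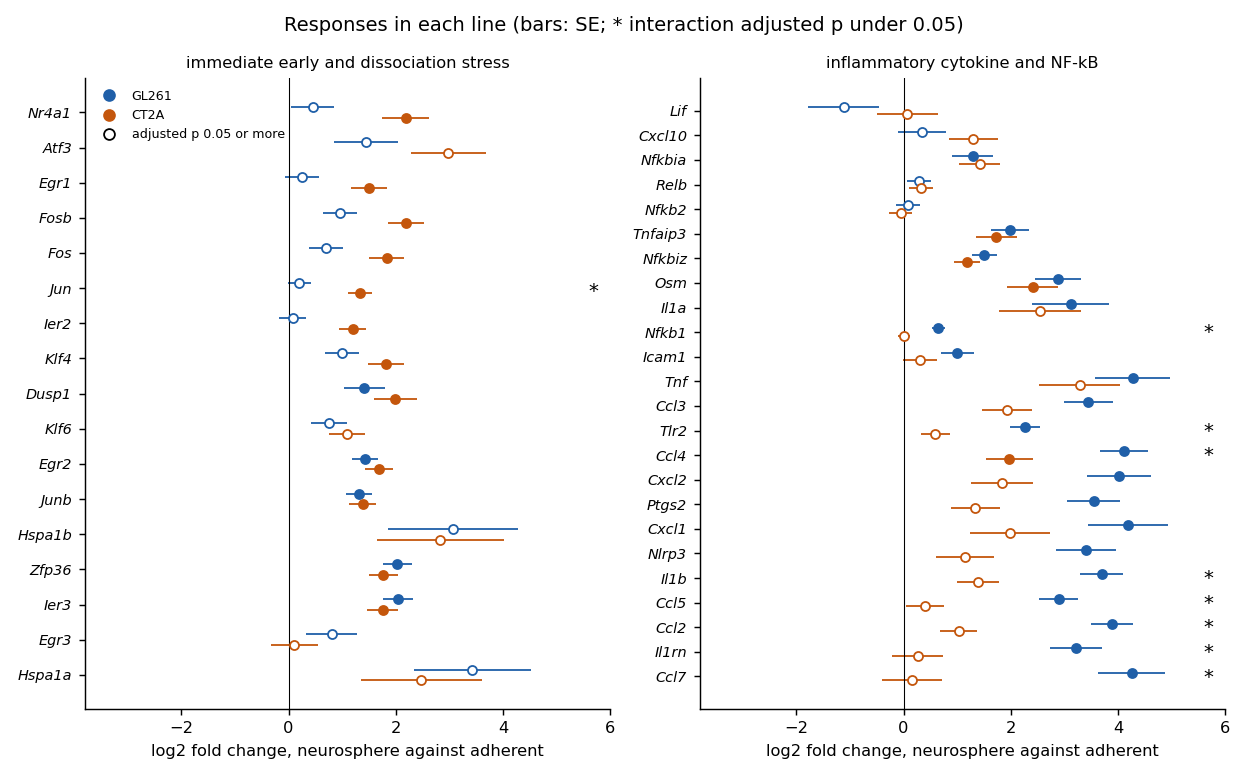
Response of each gene (log2 fold change of neurosphere against adherent tumors, x axis) in GL261 and CT2A for 17 early response genes (left) and 24 inflammatory genes (right), ordered by interaction; bars are SE, filled points have an adjusted p under 0.05 within the line and asterisks mark the interaction. In the early list 12 genes are filled for CT2A and 5 for GL261, and in the inflammatory list 4 and 20.

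Of the macrophage markers all 13 rose in GL261 and none was called in CT2A, and 7 of 13 passed the interaction with the lower response in CT2A, beside 9.9% of all genes that rose in GL261 and 5.7% past the interaction in that direction. That number was 3 without libraries 71 or 89 and 13 without CT2A neurosphere library 59, which held the most macrophage RNA of its group. Adgre1, which encodes F4/80, had 4.22, 38.4, 36.0 and 19.2 CPM in GL261 adherent and 254, 239 and 235 CPM in GL261 neurosphere libraries. The CT2A levels were 35.1 to 83.0 CPM in adherent and 28.5 to 71.5 CPM in neurosphere libraries, which overlap. The interaction was -3.67 ± 0.72 (SE, adjusted p = 0.0110). Cd163, a hemoglobin scavenger receptor, gave -5.26 ± 0.80 (SE, adjusted p = 0.00355), from at most 0.482 CPM in GL261 adherent to 10.1 to 18.2 CPM in GL261 neurosphere libraries. Cd68, a lysosomal glycoprotein of macrophages, gave -3.06 ± 0.66 (SE, adjusted p = 0.0165), and Mrc1, Msr1, Ms4a7 and Fcgr1 were the other members past the test.

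Related lists were counted in the same way, beside the same 9.9% and 5.7%. Of 10 homeostatic microglia markers 8 rose in GL261, and 2 passed the interaction, among them Fcrls at -4.49 ± 0.82 (SE, adjusted p = 0.00927). That number was 4 without GL261 adherent library 81 and 1 without libraries 71 or 89. Of 11 genes of lipid-associated macrophages 8 rose in GL261, and Spp1, Clec7a, Tyrobp and Fabp5 passed. Of 7 genes of MHC class II presentation 4 rose in GL261, and H2-Ab1 passed with 425, 498, 421 and 430.4 CPM in GL261 adherent, 1629, 1327 and 909 CPM in GL261 neurosphere and an interaction of -1.87 ± 0.51 (SE, adjusted p = 0.0398). The H2-Ab1 call was lost on leaving out any of libraries 57, 58, 61, 71, 81, 83, 84, 89 and 90, and 5 genes of this list passed without library 59. GL261 adherent libraries had 421 to 498 CPM of H2-Ab1, above the 94.4 to 188 CPM of CT2A adherent libraries. Of 3 tested ependyma and choroid plexus markers 2 passed, among them Ttr, a choroid plexus transthyretin, with 244 to 358 CPM in GL261 neurosphere and 13.9 to 67.1 CPM in GL261 adherent libraries and an interaction of -3.91 ± 0.73 (SE, adjusted p = 0.00947).

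Of the 7 genes that fell in CT2A alone, those named by rule were Chl1, a neural adhesion molecule of the L1 family, Gpr37l1, a receptor of astrocytes and oligodendrocyte precursors, Ppp1r3c, a glycogen-targeting subunit of protein phosphatase 1, Prkar1b, a regulatory subunit of protein kinase A, Sox10 and Sfxn5, a mitochondrial carrier. The remaining gene was Gjc3, a connexin of myelinating glia. Several were expressed in GL261 and scarcely in CT2A, so that their CT2A response rests on few reads. The number of CT2A-only genes, the 3 higher ones included, was 0 without library 70, 1 without 71 or 89, 2 without 57, 90 or 91, 5 without 84, 6 without 61, 69, 82 or 83, and 28 without 60.

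Gpr37l1 (chr1:135160234-135167681) had the lowest adjusted p of the CT2A-only genes. It had 2.31, 4.46 and 4.67 CPM in CT2A adherent and 0.475, 0.220, 0.283, 0.877 and 0.426 CPM in CT2A neurosphere libraries, from 104 and 26 reads. In GL261 it had 68.7 to 114 CPM in adherent and 54.6 to 79.3 CPM in neurosphere tumors, which overlap. The CT2A response was -3.07 ± 0.37 (SE, adjusted p = 0.00320), the GL261 response -0.45 ± 0.26 and the interaction -2.62 ± 0.45 (SE, adjusted p = 0.00767), which held without each library in turn. The macrophage covariate left -2.01 ± 0.65 (SE, adjusted p = 0.468).

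Sox10 and Chl1 had 17 and 26 reads in all CT2A adherent libraries together and 5 and 6 in the CT2A neurosphere libraries. Sox10 (chr15:79154908-79165240) had 1129, 810.4, 748 and 758 CPM in GL261 adherent and 549, 616 and 665 CPM in GL261 neurosphere tumors, against 0.851, 0.446 and 0.623 CPM (adherent) and 0, 0.147, 0.142, 0.0877 and 0 CPM (neurosphere) in CT2A. The interaction was -2.27 ± 0.57 (SE, adjusted p = 0.0281) for Sox10, lost without libraries 57, 69, 71, 89 or 90 at up to 0.0818 and with the bulk groups in the fit at 0.0976, and -3.14 ± 0.69 (SE, adjusted p = 0.0168) for Chl1, lost without library 71 at 0.0830. The bulk CT2A tumors, which hold host brain cells, had 13.8 to 32.7 CPM of Sox10.

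Sfxn5 and Ppp1r3c were expressed in both lines. Sfxn5 had 14.6, 16.6 and 20.4 CPM in CT2A adherent and 7.60, 6.68, 5.52, 8.15 and 6.53 CPM in CT2A neurosphere tumors, and 7.91, 18.3, 21.1 and 16.8 CPM (adherent) and 23.5, 21.0 and 14.9 CPM (neurosphere) in GL261. The CT2A groups did not overlap and the GL261 groups did. Its CT2A response was -1.32 ± 0.27 (SE, adjusted p = 0.0344) and its interaction -1.64 ± 0.39 (SE, adjusted p = 0.0222), lost without libraries 71, 89 or 90 at up to 0.0911 and with the bulk groups in the fit at 0.108, and reduced to -0.40 ± 0.51 (SE, adjusted p = 1) with the macrophage covariate. Ppp1r3c had an interaction of -2.45 ± 0.64 (SE, adjusted p = 0.0354), lost without 7 libraries (57, 58, 70, 71, 84, 89 and 90) at up to 0.114 and with the bulk groups in the fit at 0.0598, and Prkar1b one of -2.35 ± 0.54 (SE, adjusted p = 0.0191), lost without libraries 70, 71, 89 or 90 at up to 0.0630 and with the bulk groups in the fit or the length offset at up to 0.136.

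Markers of several neural cell types moved with these genes in CT2A, astrocyte markers among them. The mean log2(CPM + 1) of 10 markers was 4.12 to 4.66 in CT2A adherent and 1.85 to 3.23 in CT2A neurosphere libraries, and 3.68 to 5.56 and 4.80 to 5.26 in the GL261 groups. All 10 were detected in each group, with a summed level of 464 to 624 CPM in CT2A adherent and 88.7 to 343 CPM in CT2A neurosphere libraries. Of 9 tested, 4 fell in CT2A and none was called in GL261 (Slc1a3, Slc1a2, S100b and Aldoc in CT2A), beside 0.723% of all genes that fell in CT2A, and Slc1a3 and S100b passed the interaction with the lower response in CT2A, beside 5.7%, with 1 of them left without library 71. Slc1a3, the glial glutamate transporter GLAST, had 18.5, 33.8 and 29.0 CPM in CT2A adherent and 2.61, 1.25, 1.70, 5.17 and 2.98 CPM in CT2A neurosphere libraries, against 6.33, 40.3, 44.5 and 24.0 CPM (adherent) and 28.6, 44.3 and 51.1 CPM (neurosphere) in GL261. Its interaction was -3.86 ± 0.73 (SE, adjusted p = 0.0100). The mean log2(CPM + 1) of 10 oligodendrocyte markers was 2.75 to 3.03 in CT2A adherent libraries and 1.22 to 1.58 in 4 of the CT2A neurosphere libraries, with 3.35 in library 60. None of the 9 tested was called in either line. For neuron markers it was 2.69 to 3.28 in CT2A adherent and 1.52 to 2.41 in CT2A neurosphere libraries. The part of residual astrocytes, oligodendrocytes or neurons in the CT2A-only genes was not tested. With the macrophage covariate 7 of the 7 lower genes were still called in the CT2A response. The mean macrophage score was 5.72 in CT2A adherent and 5.66 in CT2A neurosphere libraries, so this covariate could alter that response little. It does not measure the neural cell types. With the mean marker score, whose lists include Sox10, 1 of the 7 itself, 2 were called.

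Of 9 tested oligodendrocyte progenitor genes, 3 fell in each line and 3 passed the interaction, Bcan, Olig2 and Sox10, with the lower response in CT2A. Their CT2A side rests on few reads: 12 (adherent) and 2 (neurosphere) for Olig2, 17 and 5 for Sox10 and 132 and 19 for Bcan. The shares of all genes were 2.92% for a fall in GL261, 0.723% for one in CT2A and 5.7% for a lower response in CT2A. Only 1 passed on leaving out any of libraries 57, 69, 71, 89 and 90. Bcan, the proteoglycan brevican, fell in both: it had 110.2, 82.9, 83.8 and 101 CPM (adherent) and 34.1, 37.1 and 64.4 CPM (neurosphere) in GL261 and 3.16, 6.47 and 4.98 CPM (adherent) and 0.317, 0, 0.283, 0.701 and 0.426 CPM (neurosphere) in CT2A. The responses were -1.03 ± 0.32 (SE, adjusted p = 0.0481) and -3.85 ± 0.46 (SE, adjusted p = 0.00320), and the interaction -2.82 ± 0.57 (SE, adjusted p = 0.0123). Neto1, a glutamate receptor auxiliary protein and the remaining gene called in both lines with an interaction, fell in GL261 by 0.76 ± 0.20 on the log2 scale (SE, adjusted p = 0.0204) and had 18 reads in CT2A adherent and 2 in CT2A neurosphere libraries.

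Growth factor receptors and their ligands held 5 of 29 tested genes past the interaction, all with the lower response in CT2A, beside 5.7% of all genes. Ntrk2, the BDNF receptor TrkB, fell in CT2A and was not called in GL261. It had 9.72, 20.3 and 18.2 CPM in CT2A adherent and 0.555, 1.03, 1.42, 3.24 and 1.42 CPM in CT2A neurosphere tumors, and 2.43, 13.7, 12.8 and 3.74 CPM (adherent) and 14.1, 21.5 and 12.5 CPM (neurosphere) in GL261. For Ntrk2 the CT2A response was -3.38 ± 0.57 (SE, adjusted p = 0.0145) and the interaction -4.38 ± 0.81 (SE, adjusted p = 0.00947), and astrocytes express this receptor too. Without CT2A neurosphere library 59 the list held 8 genes past the interaction. Igf1, a growth factor made by macrophages, rose in GL261 from between 0.738 and 6.55 to between 16.0 and 87.6 CPM, with an interaction of -3.85 ± 0.74 (SE, adjusted p = 0.0107). Egfr went from between 0.289 and 0.591 to between 1.10 and 2.87 CPM in GL261, far under its 37.1 to 42.5 CPM (adherent) and 16.3 to 36.1 CPM (neurosphere) in CT2A, with an interaction of -2.58 ± 0.51 (SE, adjusted p = 0.0111). Pdgfrb, the PDGF receptor of pericytes and mesenchymal cells, was the other member beside Pdgfc, at -1.85 ± 0.53 (SE, adjusted p = 0.0495). Of 6 tested pericyte markers 3 passed the interaction, Pdgfrb, Rgs5 and Acta2, all with the lower response in CT2A, beside 5.7% of all genes. None of these 3 passed without library 71, and 1 did on leaving out any of libraries 57, 61, 69, 70, 81, 84, 89, 90 and 91.

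Some genes of other lists fell in GL261 and were not called in CT2A. Of 10 YAP/TAZ targets, Amotl2 and Ajuba passed the interaction with the higher response in CT2A, beside 0.969% of all genes. Amotl2, an angiomotin that restrains YAP, had 359, 207, 171 and 189.8 CPM in GL261 adherent and 108, 135 and 157 CPM in GL261 neurosphere tumors, and 34.5, 43.3 and 29.7 CPM (adherent) and 51.9, 44.6, 53.7, 69.1 and 53.4 CPM (neurosphere) in CT2A. Its responses were -0.76 ± 0.24 (SE, adjusted p = 0.0473) and 0.61 ± 0.23 (SE, adjusted p = 0.307), and the interaction was 1.37 ± 0.33 (SE, adjusted p = 0.0235). Ajuba, a LIM protein of the same pathway, gave 1.33 ± 0.36 (SE, adjusted p = 0.0416). Both were highest in GL261 adherent library 81. Neither passed without libraries 69, 71 or 89, and 1 of them passed on leaving out any of libraries 60, 61, 70, 84, 90 and 91.

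Tubb3, a neuronal beta-tubulin that gliomas also express, fell in GL261 from between 116 and 208 to between 64.1 and 81.3 CPM, while CT2A had 60.1 to 100.4 CPM in adherent and 93.2 to 146 CPM in neurosphere tumors. Its interaction was 1.72 ± 0.31 (SE, adjusted p = 0.00885). Of 8 tested neuron markers Tubb3 was the 1 with the higher response in CT2A, beside 0.969% of all genes, and 2, Syn1 and Nefl, had the lower one, beside 5.7%. The list's median interaction was -2.37, and 6 passed without library 60 and 1 on leaving out any of libraries 57, 58, 61, 70, 71, 84, 89 and 90 or with the bulk groups in the fit. Msi1, an RNA-binding protein of neural stem cells, went from between 30.5 and 44.8 to between 18.4 and 20.9 CPM in GL261 and was 18.8 to 25.3 CPM (adherent) and 20.2 to 33.9 CPM (neurosphere) in CT2A, with an interaction of 1.06 ± 0.25 (SE, adjusted p = 0.0232). Of 13 tested neural stem cell genes, the kind that neurosphere culture is meant to favor, 1 rose and 2 fell in GL261. In CT2A 1 rose, and the matching shares of all genes were 9.9%, 2.92% and 0.217%. The interaction was passed by 2 on opposite sides, Msi1 and Olig2 (12 CT2A adherent and 2 CT2A neurosphere reads), beside 6.67% of all genes. That number was 0 without libraries 70, 71, 89 or 90 and 1 on leaving out any of libraries 57, 58, 61, 69, 81, 84 and 91. Id1, an inhibitor of differentiation factors, was the gene that rose in both lines, by 0.95 ± 0.29 (SE, adjusted p = 0.0410) in GL261 and 1.45 ± 0.31 (SE, adjusted p = 0.0429) in CT2A.

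In the TGF-beta and BMP list 3 of 20 tested genes passed the interaction, beside 6.67% of all genes. Beside Tgfb1, the receptor Tgfbr1 had the lower response in CT2A (-1.24 ± 0.31, SE, adjusted p = 0.0277) and the protease Bmp1, which processes procollagen, the higher one (0.83 ± 0.23, SE, adjusted p = 0.0483), and 1 of the 3 passed without libraries 61, 71 or 89. Matrix genes gave 3 of 23, Postn, Loxl1 and Lum, with 1 left without library 91, and collagens 1 of 23, Col5a2, a share below that of all genes. Col5a2 was lost on leaving out any of libraries 57, 58, 60, 69, 70, 71, 81, 82, 84, 89 and 91, while 4 collagens passed without library 83. Postn, the matricellular protein periostin, had 40.9, 41.3, 56.4 and 24.1 CPM (adherent) and 50.4, 57.5 and 94.6 CPM (neurosphere) in GL261 and 1300.5, 1193 and 997 CPM (adherent) and 601, 914, 538, 699.7 and 817 CPM (neurosphere) in CT2A, with no called response in either line and an interaction of -1.46 ± 0.38 (SE, adjusted p = 0.0324). Loxl1 and Lum had 5 and 12 reads in all GL261 adherent libraries together.

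Other programs gave few calls. None of 23 proliferation genes, 14 genes of MHC class I presentation, 20 genes of cholesterol synthesis, 16 genes of the unfolded protein response, 10 mesenchymal factors, 9 retinoic acid genes and 20 genes of oxidative phosphorylation passed the interaction, beside 6.67% of all genes. In that order 4, 1, 5, 4, 4, 1 and 1 of them had an unadjusted p under 0.05, and DESeq2 called 2, 1, 2, 1, 2, 0 and 1. Leaving out a library gave at most 2 past the test in any of these 7 lists. In the interferon-stimulated list 1 of 29 passed, Oas1a, an antiviral sensor of double-stranded RNA, at -1.56 ± 0.42 (SE, adjusted p = 0.0401), with 4 and 3 past without libraries 59 and 60 and none without 57, 58, 69, 71, 83, 84, 89 or 90. In the WNT list 1 of 31 passed (Lrp5), in the hypoxia list 1 of 22 (Pfkfb4), among ERK targets 1 of 18 (Egfr) and in the Notch list 2 of 17 (Lfng and Hey2). Lrp5 was lost without libraries 57, 69, 70, 71, 89 or 90, and 2 WNT genes passed without 91. Pfkfb4 was lost without 71 or 89, a single Notch gene passed without 71, 89 or 90, and 3, 2 and 2 ERK targets passed without 59, 81 and 82. The median interaction was 0.29 for proliferation, 0.20 for interferon-stimulated genes and 0.09 for MHC class I, against 0.05 over all genes, and p-values above the threshold do not show that the lines responded alike.

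Gm11127 (chr17:36055816-36058371), a coding gene of the MHC class I region, was the single gene called in opposite directions. It had 34.5, 33.5, 28.6 and 36.0 CPM in GL261 adherent and 19.2, 17.0 and 17.8 CPM in GL261 neurosphere tumors, and 30.0, 29.3 and 34.3 CPM (adherent) and 48.3, 45.5, 45.6, 40.2 and 60.2 CPM (neurosphere) in the CT2A groups. Neither pair of groups overlapped. The response was -0.85 ± 0.14 (SE, adjusted p = 0.00136) in GL261 and 0.62 ± 0.13 (SE, adjusted p = 0.0420) in CT2A, with an interaction of 1.47 ± 0.19 (SE, adjusted p = 0.00153) that held without each library in turn and was 1.38 ± 0.31 (SE, adjusted p = 0.210) with the macrophage covariate. The opposite call itself was less firm: it was kept without library 60 or 81 and lost without each of the other 13 libraries. It was also lost with the bulk groups in the fit, with the length offset, without a minimum count and with either marker score covariate. Without library 60 there were 3 opposite genes and without 81 there were 6. Class I genes are near copies of each other and reads can be shared between them, so the value is uncertain as a value of this gene alone.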

How the data were processed

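RNA from 23 ex vivo tumor libraries was sequenced, and the 15 sorted libraries were compared. Per the labels and methods, the authors aligned reads with STAR 2.7.7a, used RSEM 1.3.3 and Salmon and tested with DESeq2 1.30.1. The deposited Salmon files give estimated counts, TPM and effective lengths per transcript. Estimated counts of 116546 transcripts were summed to 35576 genes and rounded, and the TPM values deposited by the authors served for an alternative marker score. The 180 transcripts without a gene were left out of tests and library sizes; they took at most 0.152% of reads. Depth was 7395846 to 15263587 reads per sorted library.

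Genes with a mean normalized count above 10 over the 15 libraries (13824) entered a quasi-likelihood fit (R 4.3.3, edgeR 4.0.16, TMM factors) with 1 coefficient for each of the 4 groups and Benjamini-Hochberg adjustment at 0.05. SE is the fold change divided by the root of F. The fit was tested on simulated data. Replicate pairs differed by more than counting noise (chi-square per degree of freedom 5.07 to 85.8), so no library was a copy. The labels do not say which animal gave each library, so p-values measure the spread between these samples. All contrasts share the 4 groups.

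The members and gene lists were chosen with earlier results of these data known. Named genes were, in each class, the 6 protein-coding genes with the largest absolute interaction, at least 10 CPM in the highest group and groups of the responding line without overlap, then up to 4 that also passed with the macrophage covariate, and members of each list with the smallest interaction p; En1 and genes of early response without a call were chosen after their values were seen. Alternatives were DESeq2 1.42.0, its size factors, other count filters, the bulk groups in the fit and a length offset. Marker score covariates and leaving out each library were further ones. Promoter windows came from RefSeq (GRCm38.p6). Some items are not reported here.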

Additional observations from a re-analysis of the deposited data

Results flagged for a closer look

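In groups of 4 to 10 libraries, 76 groups of values were checked for a library far from the rest and 4 had one, where chance gives about 1 in 20. The gap set apart GL261 adherent Sox10 at 1129 CPM, CT2A neurosphere Plag1 at 39.3 CPM (library 59), and, both in CT2A neurosphere library 60, an oligodendrocyte score of 3.35 and a neuron score of 2.41.

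The lines differed in their response, by the test of the difference itself, in 922 genes. Among the named genes the interaction was -3.42 for Ppp1r3b, -3.41 for Spp1, -3.33 for Dab2, -3.28 for Gm49339, -3.19 for Gypc and -3.18 for Lcmt2. It was 1.59 for Atg9b, 1.54 for Plag1, 1.41 for Pacsin3, 1.403 for Armcx6, 1.38 for Ccl25, 1.37 for Plagl1 and 1.47 for Gm11127. It was 2.05 for Trp53i11, 1.87 for Ptprf and 1.13 for Jun, and -3.14 for Chl1, -2.62 for Gpr37l1, -2.45 for Ppp1r3c, -2.35 for Prkar1b, -2.27 for Sox10 and -1.64 for Sfxn5. All 22 values are log2 fold changes in CT2A minus those in GL261.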

How the results depend on the processing

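DESeq2 called 1536 genes in the interaction (426 higher and 1110 lower in CT2A), the 922 included, 379 in the CT2A response, 26 as CT2A-only and 4 as opposite. With the bulk groups in the fit the CT2A response covered 59 genes, 3 were CT2A-only and 0 opposite, and 0 were opposite with the length offset or without a minimum count. With the macrophage score as a covariate the interaction covered 1 gene, the GL261 response 1 (1139 at an unadjusted p under 0.05), and the GL261-only, CT2A-only and opposite classes 0 each. With the mean marker score the interaction covered 0 genes (1953 at an unadjusted p under 0.05), the GL261 response 402, the CT2A response 74 and the 3 classes 0. A minimum absolute log2 fold change of 1 left 1132 genes in the GL261 response. Without the bound on the other line's interval 627 genes were GL261-only and 42 CT2A-only. Causes of these changes were not tested, apart from the fewer genes that a stricter rule admits.

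Leaving out each library in turn gave 261 to 1267 genes in the interaction, 894 to 2104 in the GL261 response, 9 to 291 in the CT2A response, 88 to 304 as GL261-only, 0 to 28 as CT2A-only and 0 to 6 as opposite. Of the 22 named genes, 10 were called without each single library. No value turned its direction. No paired analysis was possible because the groups share no replicate numbers.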
